A study of Mus musculus with 12 samples.

Results

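The genes studied here are switched on within minutes of neuronal activity, and their DNA methylation was followed in mouse cortex: Fos, Fosb, Junb, Egr1, Egr2, Egr3, Npas4, Nr4a1, Nr4a3 and Arc. They were taken from a list of immediate early genes and found by symbol. All 10 were present among the 23882 genes of the deposited tables, and 9, all but Junb, were among the 19826 genes with at least 500 calls in each library. Whole-genome bisulfite sequencing of cortical DNA from C57BL/6 mice gave the level of non-CG methylation (mCH), the percentage of covered cytosines outside CG that were read as methylated over a RefSeq transcript. The 12 libraries comprised 4 labelled miR29 KO and 4 labelled WT, both at postnatal day 40 (P40), and 2 labelled Dnmt3a mi5 and 2 labelled WT, both at 4 months. The labels name neither the deleted miR-29 genes nor the cells that lack them. The mi5 libraries carry DNMT3AmiR29MUT in their titles, and Dnmt3a encodes a DNA methyltransferase. The comparisons asked whether mCH over these genes differed between each mutant and the WT of its age. The tables hold DNA methylation only, so the tissue could not be checked by expressed markers. In DNA of whole cortex, a shift in the mix of cells and a change within cells cannot be told apart.

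Immediate early genes are transcribed without new protein synthesis. Calcium entry and kinase signalling act on factors already bound at their promoters and enhancers, chiefly CREB, SRF with its partners, and MEF2. Fos, Fosb and Junb encode leucine zipper subunits of AP-1, Egr1 to Egr3 zinc finger factors, Npas4 a bHLH-PAS factor largely restricted to neurons, and Nr4a1 and Nr4a3 orphan nuclear receptors. Arc is induced with them but is not a transcription factor: its protein acts at synapses, in the removal of AMPA receptors. mCH is written by Dnmt3a, accumulates in neurons after birth, and tends to be low over genes that neurons transcribe strongly.

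Where RefSeq gave them, the start regions of these genes were searched for letter matches to binding sites of transcription factors. Those of 4 genes are shown. Nr4a3 had the highest WT level at P40 and Fos the highest WT level at 4 months, while Npas4 and Nr4a1 had lower levels. Each line gives the 250 bases before the annotated start, 5′ to 3′ on the gene's strand, from RefSeq on GRCm38.p6. Capitals mark TGACG, the core of the CREB site, in either orientation, TATAAA on the gene strand of Fos, and the EGR site GCGNGGGCG, present in Nr4a1 as its reverse complement. The windows are chr4:48045055-48045304 (plus strand) for Nr4a3, chr12:85473640-85473889 (plus strand) for Fos, chr19:4989972-4990221 (minus strand) for Npas4 and chr15:101266596-101266845 (plus strand) for Nr4a1.
Nr4a3: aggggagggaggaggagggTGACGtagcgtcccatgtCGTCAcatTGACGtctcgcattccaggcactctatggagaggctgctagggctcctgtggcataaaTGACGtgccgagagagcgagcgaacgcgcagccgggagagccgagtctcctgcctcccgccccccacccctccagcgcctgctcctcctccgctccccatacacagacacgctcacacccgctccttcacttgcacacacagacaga
Fos: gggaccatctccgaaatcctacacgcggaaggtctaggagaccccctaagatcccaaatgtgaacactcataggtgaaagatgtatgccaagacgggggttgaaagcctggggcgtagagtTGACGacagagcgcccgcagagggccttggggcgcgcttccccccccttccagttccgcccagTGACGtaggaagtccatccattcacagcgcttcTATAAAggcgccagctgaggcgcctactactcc
Npas4: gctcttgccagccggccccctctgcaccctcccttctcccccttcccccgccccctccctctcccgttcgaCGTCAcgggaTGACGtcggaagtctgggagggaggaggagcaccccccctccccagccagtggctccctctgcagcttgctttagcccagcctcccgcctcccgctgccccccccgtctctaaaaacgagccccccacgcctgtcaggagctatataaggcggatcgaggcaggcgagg
Nr4a1: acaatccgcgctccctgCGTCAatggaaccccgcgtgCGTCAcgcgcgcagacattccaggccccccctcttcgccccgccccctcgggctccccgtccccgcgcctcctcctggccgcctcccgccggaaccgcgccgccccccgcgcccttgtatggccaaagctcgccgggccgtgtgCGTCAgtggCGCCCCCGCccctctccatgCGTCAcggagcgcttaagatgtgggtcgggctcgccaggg
The tables give 1 level per transcript and none for these windows, and the tables' genome is mm9.

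RefSeq gave such windows for 7 of the 10 genes, all but Egr1, Egr3 and Arc, and for Egr2 it gave several starts, so that 11 windows were read. Motifs were searched on both strands, TATAAA on the gene strand only. TGACG lay in 17.8% of all 32851 windows of this length. It was found 4 times each in Nr4a3 and Nr4a1, 2 times each in Fos and Npas4 and 1 time each in Fosb and Junb, while the Egr2 windows held 0 to 2. The full site TGACGTCA, which contains TGACG, in 1.55% of all windows, was in none of the 11, nor were the AP-1 site TGANTCA (6.75% of all windows) and the nuclear receptor site AAAGGTCA (1.34%). The CArG box, the SRF site, was in 4 of the Egr2 windows against 1.47% of all windows; 3 of these 4 share most of their sequence, so they are not separate occurrences. GCGNGGGCG was in Nr4a1 and Fosb against 4.7%, and TATAAA in Fos against 7.59%. CG dinucleotides numbered 34 in the Nr4a1 window, 15 to 20 in those of Fos, Npas4, Nr4a3, Fosb and Junb, and 15 to 26 in those of Egr2, against a median of 6 (quartiles 2 and 16) over all windows. A motif match is a match of letters only.

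Total calls over all genes ran from 624203672 to 701491569 in miR29 KO, 605997533 to 732985426 in P40 WT, 399563492 to 408921118 in mi5 and 440703827 to 474003465 in 4-month WT libraries. Mean mCH over the tested genes was 2.16% ± 0.316 in miR29 KO against 1.39% ± 0.124 in P40 WT (SD, n = 4 each), and 2.33% ± 0.0306 in mi5 against 1.32% ± 0.00564 in 4-month WT (SD, n = 2 each). The 1st percentile of tested genes lay between 0.219% and 0.287% in all 12 libraries, and levels of that order are called background here. In 1 library of each group (miR29 KO replicate 3, P40 WT replicate 2, mi5 replicate 1 and 4-month WT replicate 2) coverage of Y-linked genes was low. Most of the 10 genes were covered thinly. Junb had 338 to 1039 calls per library, Fos, Egr1, Egr2, Egr3 and Arc 859 to 3192, Fosb, Npas4 and Nr4a1 1437 to 5986, and only Nr4a3, with 15538 to 30270, exceeded the median gene of its library.

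mCH over the 10 genes spanned from background to well above the typical gene. In P40 WT cortex Nr4a3 was highest at 1.996% ± 0.149 and Junb lowest at 0.348% ± 0.241 (SD, n = 4), with Egr3, Egr2, Arc, Fos, Fosb, Npas4, Egr1 and Nr4a1 in that order between them. Each neighbouring pair in that order overlapped in its libraries, and Nr4a3 overlapped with Egr3 alone. In 4-month WT cortex the order was Fos, Nr4a3, Egr3, Egr2, Egr1, Nr4a1, Fosb, Arc, Npas4 and Junb, and the pairs that did not overlap were Fos and Nr4a3, Egr1 and Nr4a1, Arc and Npas4, and Npas4 and Junb, with 2 libraries each. Set against the tested genes, the P40 WT mean of Nr4a3 exceeded 77.9% of them, that of Egr2 49.95%, that of Nr4a1 16.0% and that of Junb 2.21%. At 4 months Fos exceeded 93.5%, Nr4a3 89.4%, Npas4 3.21% and Junb 0.192% of tested genes in WT.

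**Figure D1:**
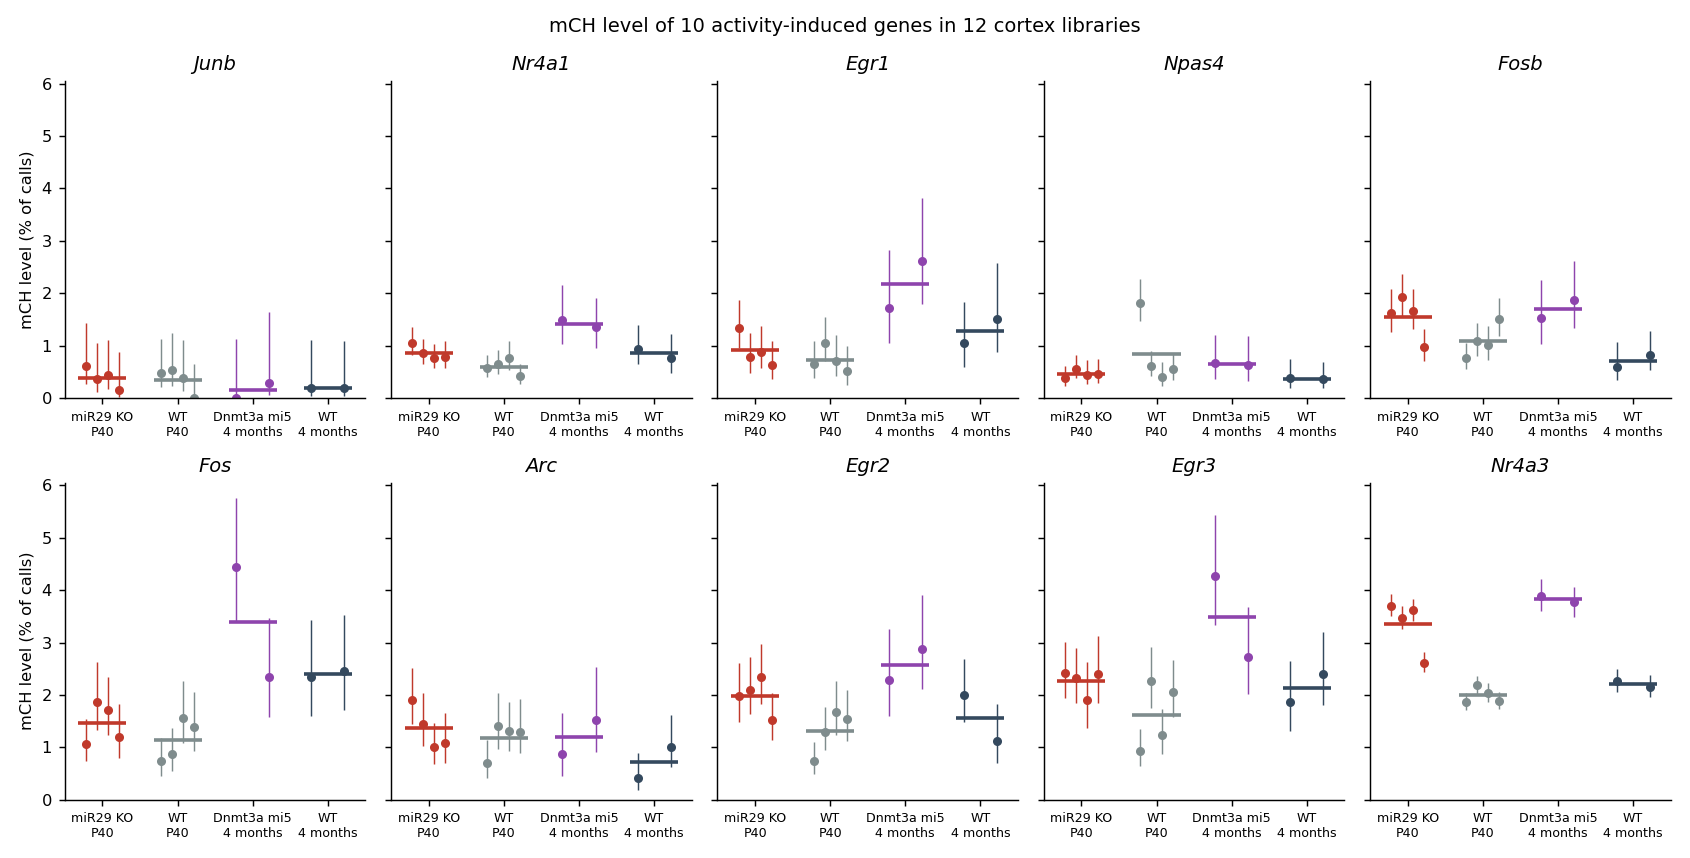
mCH level (percent of non-CG calls, vertical axis, the same scale in every panel) of each gene in each library, grouped by genotype and age along the horizontal axis and ordered by P40 WT level. Points are libraries, bars 95% Wilson intervals that cover counting error only, and lines group means; Nr4a3 stands at 2.62% to 3.70% in miR29 KO and 1.87% to 2.19% in P40 WT, and a single P40 WT library stands out for Npas4 at 1.82%.

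Junb, an AP-1 subunit that pairs with Fos proteins, was at or near background in every group. Its levels were 0.614%, 0.359%, 0.431% and 0.155% in miR29 KO and 0.481%, 0.533%, 0.378% and 0% in P40 WT. They were 0% and 0.294% in mi5 and 0.197% and 0.195% in 4-month WT. The groups overlapped at both ages, and the methylated calls behind them were 13 of 3225 in miR29 KO, 13 of 3358 in P40 WT, 1 of 678 in mi5 and 2 of 1021 in 4-month WT. The P40 WT library with 0 of 588 calls allows a level of up to 0.510%, and the mi5 library with 0 of 338 up to 0.888%. With the 500-call minimum lifted, the log2 odds ratio of Junb was 0.059 (SE 0.63, adjusted p = 0.939) for miR29 KO over WT and -0.41 (SE 1.97, adjusted p = 0.877) for mi5 over WT, intervals too wide to show or to exclude the shift of the typical gene.

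At P40, Nr4a3 and Egr2 rose in miR29 KO and the other 7 tested genes did not pass the threshold. Changes were measured as the log2 odds ratio, the log2 of the odds that a call was methylated in the mutant over the same odds in WT, so positive values mean more mCH in the mutant. They were fitted to the calls of all 12 libraries with a quasi-binomial model, and an adjusted p (Benjamini-Hochberg over all 19826 genes) under 0.05 counted as a change. Of the 9 genes 2 rose and 0 fell, where 76.5% of all tested genes rose and 0.0454% fell. Their median log2 odds ratio was 0.53, beside 0.65 over all tested genes, and 8 of the 9 were positive. For 2 of the 9, Nr4a3 and Nr4a1, every miR29 KO library lay above every WT library, where that held for 57.1% of all tested genes. A gene below the threshold was not thereby unchanged. Of the 9, 5 lay in the tenth of tested genes with the fewest calls, in which 40.04% passed in either direction.

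Nr4a3, a nuclear receptor of the Nr4a family, gained most at P40. Its levels were 3.70%, 3.47%, 3.62% and 2.62% in the 4 miR29 KO libraries and 1.87%, 2.19%, 2.04% and 1.89% in the 4 WT libraries. All 4 KO libraries lay above all 4 WT libraries, the lowest being KO replicate 4. The means were 3.35% ± 0.499 and 1.996% ± 0.149 (SD, n = 4 each), a difference of 1.36 points and a log2 odds ratio of 0.78 (SE 0.12, adjusted p = 5.7e-05). The KO library with low Y-gene coverage had 3.62% against 2.19% in its WT counterpart, a difference in the same direction as between the remaining libraries. Relative to the median gene of its own library, Nr4a3 stood at 1.62 ± 0.0922 times in miR29 KO and 1.53 ± 0.0243 times in WT.

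Nr4a1, a close relative of Nr4a3, had far less mCH. Its levels were 1.05%, 0.853%, 0.768% and 0.785% in miR29 KO and 0.574%, 0.641%, 0.759% and 0.414% in WT. Every KO library again lay above every WT library, although the lowest KO library, 0.768%, and the highest WT library, 0.759%, nearly met. The means were 0.865% ± 0.131 and 0.597% ± 0.144 (SD, n = 4 each), and the log2 odds ratio of 0.56 (SE 0.25) just missed the threshold (adjusted p = 0.0504). Without miR29 KO replicate 3, miR29 KO replicate 4 or WT replicate 3 it passed, with adjusted p of 0.0497, 0.0340 and 0.0436. Of 24 alternative analyses, which include these, it passed in 8. Nr4a1 was lower than Nr4a3 in all 12 libraries.

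Egr2, an EGR family zinc finger factor, was the other gene that rose at P40. Its levels were 1.97%, 2.10%, 2.34% and 1.53% in miR29 KO and 0.738%, 1.30%, 1.67% and 1.54% in WT. The groups overlapped, since KO replicate 4 lay below 2 WT libraries, and WT replicate 1 lay well below the rest. The means were 1.98% ± 0.341 and 1.31% ± 0.413 (SD, n = 4 each), with a log2 odds ratio of 0.64 (SE 0.25, adjusted p = 0.0243). The call was lost without WT replicate 1 (log2 odds ratio 0.41, adjusted p = 0.123), without KO replicate 2 (adjusted p = 0.0514) and without KO replicate 3 (adjusted p = 0.0723).

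Egr3 and Egr1, the other EGR genes, did not pass at P40. Egr3 had 2.42%, 2.32%, 1.89% and 2.41% in miR29 KO and 0.929%, 2.26%, 1.23% and 2.06% in WT. Its KO libraries were tight (2.26% ± 0.247) and its WT libraries scattered (1.62% ± 0.640), and the log2 odds ratio was 0.53 (SE 0.24, adjusted p = 0.0551). It passed without KO replicate 3 (adjusted p = 0.0460), WT replicate 2 (0.0167) or WT replicate 4 (0.0340). The log2 odds ratio was 0.32 (adjusted p = 0.221) without WT replicate 1 and 0.42 (adjusted p = 0.142) without WT replicate 3. Egr1, widely used as a marker of recent neuronal activity, had 1.34%, 0.777%, 0.887% and 0.625% in miR29 KO and 0.647%, 1.05%, 0.706% and 0.507% in WT. The groups overlapped widely, with means of 0.908% ± 0.309 and 0.728% ± 0.231 (SD, n = 4 each) and a log2 odds ratio of 0.31 (SE 0.34, adjusted p = 0.408). It was 0.032 without KO replicate 1, 0.20 without WT replicate 4 and 0.58 without WT replicate 2.

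Fos and Fosb, the AP-1 subunits with measurable mCH, did not pass either. Fos had 1.07%, 1.87%, 1.71% and 1.20% in miR29 KO and 0.734%, 0.866%, 1.56% and 1.39% in WT. The groups overlapped, and the log2 odds ratio was 0.39 (SE 0.31, adjusted p = 0.260), or 0.20 to 0.58 when a library was left out. Fosb, whose truncated product accumulates after repeated stimulation, had 1.62%, 1.93%, 1.66% and 0.965% in miR29 KO and 0.768%, 1.08%, 1.004% and 1.51% in WT. The groups overlapped, with KO replicate 4 the lowest of its group and WT replicate 4 the highest of its own, and the log2 odds ratio of 0.53 (SE 0.24) just missed the threshold (adjusted p = 0.0504). Without KO replicate 4 the adjusted p was 0.00536, and without WT replicate 4 it was 0.0157. Arc had 1.91%, 1.45%, 1.005% and 1.08% in miR29 KO and 0.693%, 1.41%, 1.32% and 1.30% in WT. Its log2 odds ratio of 0.24 (SE 0.29, adjusted p = 0.469) was 0.042 without WT replicate 1 and no longer positive without KO replicate 1.

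Npas4, a factor that in neurons controls inhibitory synapses onto the active cell, was the gene with a negative log2 odds ratio at P40, and the size of that value rested on 1 WT library. Its levels were 0.378%, 0.557%, 0.444% and 0.455% in miR29 KO and 1.82%, 0.608%, 0.402% and 0.545% in WT. WT replicate 1, with 78 methylated of 4281 calls, stood apart from the other 11 libraries of the study, which held 8 to 26 methylated calls and did not exceed 0.660%. The log2 odds ratio was -0.97 (SE 0.45, adjusted p = 0.0572) with that library and -0.20 (adjusted p = 0.609) without it. With it kept, leaving out WT replicate 2, 3 or 4 gave adjusted p of 0.0242, 0.0189 and 0.0307, and a block for the replicate number 0.0226. Relative to the median gene of its own library, Npas4 stood at 0.226 ± 0.0522 times in miR29 KO and 0.667 ± 0.560 times in WT (SD, n = 4 each).

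**Figure D2:**
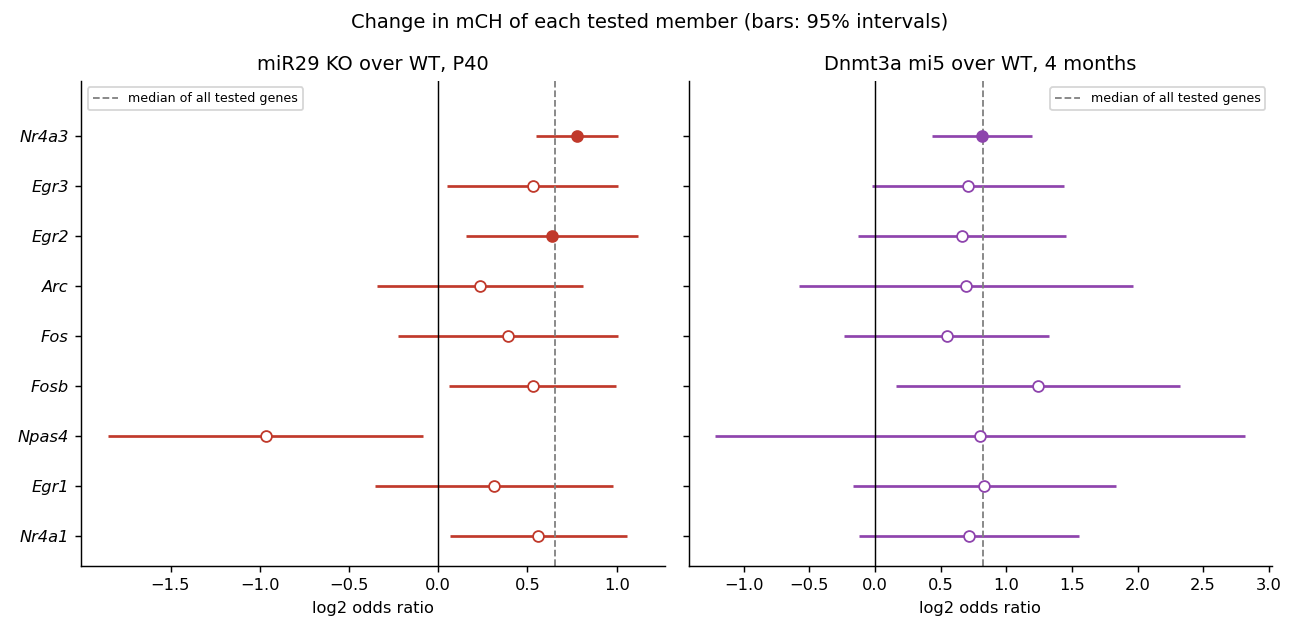
Log2 odds ratio of each of the 9 tested genes (horizontal axis) for miR29 KO over WT at P40 (left) and Dnmt3a mi5 over WT at 4 months (right), in order of P40 WT level. Bars are 95% intervals, filled points passed the threshold, the solid line is 0 and the dashed line the median of all tested genes (0.65 and 0.83); Nr4a3 passed in both panels and Egr2 at P40.

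At 4 months, Nr4a3 alone passed the threshold as higher in mi5, and the other 8 tested genes, all with positive log2 odds ratios, did not pass. Of all tested genes 58.8% rose there, so the 1 of 9 lay under that share, and of the tenth with the fewest calls, which holds 5 of the 9, 18.3% rose. The median log2 odds ratio of the 9 genes was 0.72, beside 0.83 over all tested genes. For 7 of the 9, all but Fos and Arc, both mi5 libraries lay above both WT libraries, where that held for 86.2% of all tested genes. Each group has 2 libraries, and the spread was borrowed from all 12.

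Nr4a3 had 3.89% and 3.76% in mi5 and 2.27% and 2.16% in WT. Both mi5 libraries lay far above both WT libraries, with means of 3.83% ± 0.0920 and 2.21% ± 0.0778 (SD, n = 2 each). The log2 odds ratio was 0.81 (SE 0.19, adjusted p = 0.00348), and it stood at 1.73 ± 0.0351 times the median gene of its library in mi5 and 1.81 ± 0.0416 times in WT. Nr4a1 had 1.49% and 1.35% in mi5 and 0.943% and 0.768% in WT. The libraries did not overlap, but the log2 odds ratio of 0.72 (SE 0.43, adjusted p = 0.149) did not pass. Of 24 alternative analyses, Nr4a1 passed in 4 at this age.

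Among the EGR genes, Egr1 had 1.72% and 2.62% in mi5 and 1.05% and 1.51% in WT. Egr2 had 2.29% and 2.87% in mi5 and 1.996% and 1.13% in WT, and Egr3 had 4.26% and 2.72% in mi5 and 1.87% and 2.40% in WT. All 3 lay higher in both mi5 libraries without passing, at log2 odds ratios of 0.83 (SE 0.51, adjusted p = 0.160), 0.66 (SE 0.40, adjusted p = 0.158) and 0.71 (SE 0.37, adjusted p = 0.103). The spread between the 2 mi5 libraries of Egr1 and Egr3 was about as large as the difference from WT. With a library left out, the log2 odds ratio was 0.47 to 1.09 for Egr1, 0.38 to 1.22 for Egr2 and 0.35 to 1.01 for Egr3.

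Fosb had 1.53% and 1.87% in mi5 and 0.601% and 0.825% in WT. Its log2 odds ratio of 1.24 (SE 0.55, adjusted p = 0.0596) was the largest of the 9 and just missed the threshold, and it passed when the spread was estimated without miR29 KO replicate 4 (adjusted p = 0.0272) or without P40 WT replicate 4 (0.0473). Fos had 4.44% and 2.34% in mi5 and 2.34% and 2.46% in WT. The second mi5 library was level with WT, and the log2 odds ratio was 0.55 (SE 0.40, adjusted p = 0.234), falling to -0.038 without mi5 replicate 1. Arc had 0.871% and 1.52% in mi5 and 0.410% and 1.01% in WT, which overlapped (log2 odds ratio 0.69, SE 0.65, adjusted p = 0.352; 0.22 to 1.53 with a library left out). Npas4 had 0.660% and 0.626% in mi5 and 0.379% and 0.363% in WT, on 8 to 10 methylated calls per library. Its libraries did not overlap, but its log2 odds ratio of 0.80 had an SE of 1.03 (adjusted p = 0.499). That SE uses a spread estimated over all 12 libraries, which include the P40 WT library that stood apart for Npas4. The overdispersion of Npas4 was 7.55, beside a median of 5.13 over all tested genes. The wide SE is therefore not a measure of the 4-month libraries alone.

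The size of the gain could differ between genes near background and more methylated ones. To keep the grouping apart from the comparison, the genes were grouped by their WT level at the other age. Near background here means below the 25th percentile of tested genes there. That limit lies well above the levels called background, which are of the order of the 1st percentile. For the P40 comparison this limit was 0.733% in 4-month WT, with Fosb (0.713%) and Arc (0.712%) just under it, Npas4 (0.371%) well under it and Nr4a1 (0.856%) the nearest above it. In P40 WT itself, Arc (1.18%) and Fosb (1.09%) lay above Egr1 (0.728%) and Nr4a1 (0.597%), which count as more methylated here. The 3 genes near background had a median log2 odds ratio of 0.24, with 0 passing, and the 6 more methylated ones 0.54, with 2 passing. Over all tested genes the medians were 0.40 below the limit and 0.69 above it, where 32.2% and 91.3% passed the threshold in either direction. In points of methylation the medians of the genes were 0.179 near background and 0.483 above it.

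For the 4-month comparison the limit was 0.761% in P40 WT. Nr4a1 (0.597%) and Egr1 (0.728%) fell under it and Npas4 (0.844%), with the P40 WT library that stood apart, just over it. The 2 genes near background had a median log2 odds ratio of 0.77, with 0 passing, and the 7 others 0.71, with 1 passing. Over all tested genes the medians were 0.56 below the limit and 0.87 above it, where 12.2% and 74.3% rose. In points of methylation the medians of the genes were 0.726 near background and 0.990 above the limit. Over all tested genes, those weakly methylated at the other age gained less on the log2 scale. With this grouping that appeared among the 9 genes at P40 and not at 4 months. In 4-month WT itself Npas4 (0.371%), grouped as more methylated, lay below Egr1 (1.28%), grouped as near background. In points the near-background median was the lower one at both ages, but an equal odds ratio gives fewer points at a lower level. The 4-month sets are of 2 and 7 genes, and no test was made of these differences. The P40 sets overlapped, since Fosb, near background, had 0.53 and Fos and Egr1, more methylated, 0.39 and 0.31. The sets depend on the limit: at the 10th percentile 1 gene (Npas4) was near background for the P40 comparison and 0 for the 4-month comparison. Grouped by the mean level over all 12 libraries, Npas4 and Nr4a1 were near background in both comparisons. The medians were then -0.20 for these and 0.53 for the other 7 at P40, and 0.76 and 0.71 at 4 months. That grouping uses the compared libraries, among them the P40 WT library that stood apart for Npas4.

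**Figure D3:**
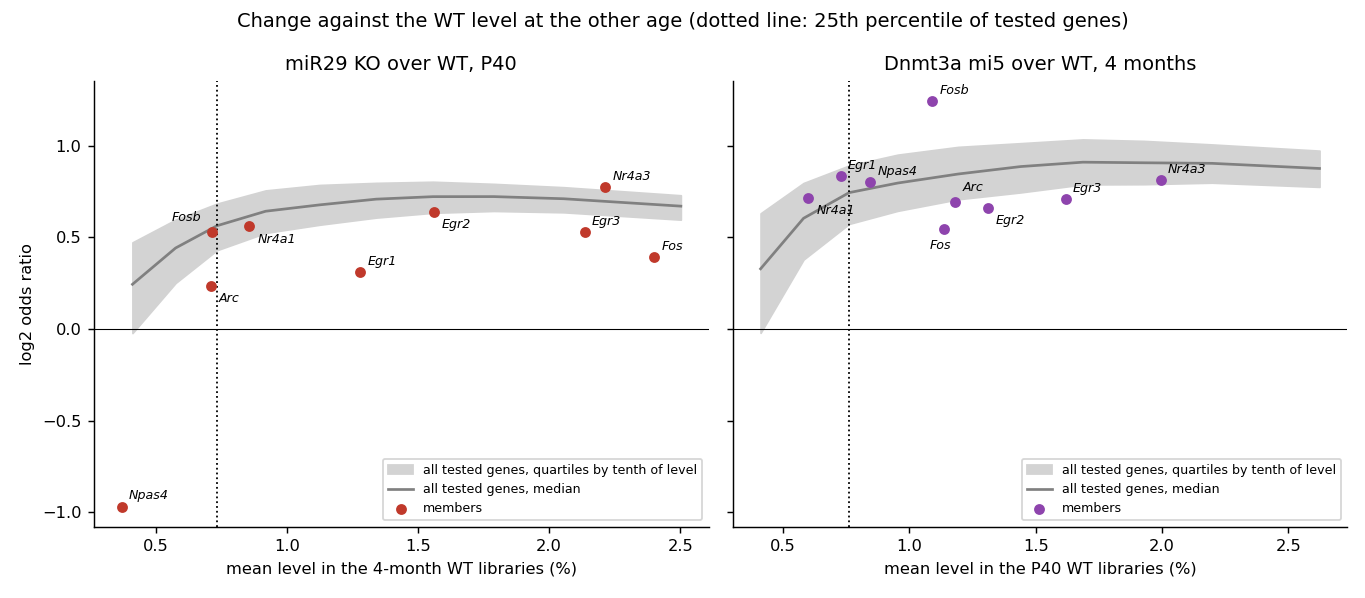
Log2 odds ratio (vertical axis) against the mean WT level at the other age (horizontal axis, percent) for miR29 KO over WT at P40 (left) and Dnmt3a mi5 over WT at 4 months (right). Points are the 9 tested genes, the grey line and band the median and quartiles of all tested genes binned by that level, and the dotted line the 25th percentile (0.733% and 0.761%); at P40 Fos (0.39), Egr1 (0.31), Egr3 (0.53) and Arc (0.24) lie below the band and Npas4 (-0.97) far below it, and Nr4a3 (0.78) just above it, and at 4 months Fosb (1.24) lies above the band and Fos (0.55), Egr2 (0.66), Arc (0.69) and Egr3 (0.71) below it.

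The difference between the mutants' effects was tested directly, as the P40 log2 odds ratio minus the 4-month one. By the quasi-binomial model 0 of the 9 genes passed, 0 had an unadjusted p under 0.05, and limma on log2 or untransformed percent also called 0. Over all tested genes 0 passed and 289 had an unadjusted p under 0.05. Nr4a3 had the narrowest interval, at -0.038 (95% interval -0.48 to 0.41). Npas4 had the largest value, -1.77 (95% interval -3.97 to 0.44), which includes the P40 WT library that stood apart.

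WT cortex of 4 months was also set against WT cortex of P40, where age and anything else that separates these sets of libraries cannot be told apart. By the quasi-binomial model 0 of the 9 genes passed, where 0.131% of all tested genes were called higher, and limma called 0. Fos was the 1 gene with an unadjusted p under 0.05. It had 2.34% and 2.46% at 4 months and 0.734%, 0.866%, 1.56% and 1.39% at P40, so that both later libraries lay above all 4 earlier ones. The log2 odds ratio was 1.15 (SE 0.39), with an adjusted p of 0.9998. Nr4a1 also lay higher in both 4-month libraries and Npas4 lower, without passing. Nr4a3, the best covered, had a log2 odds ratio of 0.15 (95% interval -0.20 to 0.50).

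The 10 genes are described by 16 transcript rows, and the row with the most calls was used. For Fosb and Arc both rows hold the same values, and the further rows of Egr2 and Egr3 differ little from those used. For Nr4a3 the shorter transcript carried more mCH than the longer one in all groups: 4.58% ± 0.618 in miR29 KO, 2.97% ± 0.481 in P40 WT, 5.09% ± 0.405 in mi5 and 3.35% ± 0.105 in 4-month WT. It rose in both mutants as well, with log2 odds ratios of 0.66 (SE 0.15, adjusted p = 5.7e-04) and 0.64 (SE 0.23, adjusted p = 0.0262). The rows overlap in sequence and are not independent.

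Other genes of the same program were taken as lists, and their counts and medians stand beside those of all tested genes: 76.5% rose at P40, with a median log2 odds ratio of 0.65, and 58.8% at 4 months, with a median of 0.83. Of 14 other activity-induced transcription factor genes 10 had enough calls. At P40 6 of the 10 rose (Fosl2, Nr4a2, Atf3, Klf4, Maff and Crem) and 0 fell, a share under the 76.5% of all tested genes, with a median log2 odds ratio of 0.57 beside 0.65. At 4 months 5 rose (all of these but Klf4) and 0 fell, again under the 58.8% of all tested genes, with a median of 0.79 beside 0.83. Fosl2, an AP-1 subunit, had the smallest p at P40, with 3.04% ± 0.346 in miR29 KO and 1.93% ± 0.212 in WT (SD, n = 4 each; log2 odds ratio 0.68, SE 0.12, adjusted p = 8.3e-05). Crem, a CREB relative whose inducible form represses CREB targets, had it at 4 months, with 2.50% in mi5 and 1.21% in WT (log2 odds ratio 1.08, SE 0.26, adjusted p = 0.00361). Nr4a2, the third Nr4a gene, had 3.45% in miR29 KO and 2.30% in WT, and 3.99% in mi5 and 2.44% in WT, levels like those of Nr4a3 and well above those of Nr4a1. The 4 genes below the minimum were Jund, Egr4, Ier2 and Klf2, whose pooled P40 WT levels were 0.365%, 0.235%, 0.198% and 1.74%, so that the first 3 were at or near background like Junb.

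Of 14 activity-induced effector and feedback genes 12 were tested, and 8 rose and 0 fell at each age, beside 76.5% and 58.8% of all tested genes, with medians of 0.66 and 0.84 beside 0.65 and 0.83. Tiparp, an ADP-ribosyltransferase, had the smallest p at P40 (3.69% in miR29 KO and 2.17% in WT). Ptgs2, the inducible cyclooxygenase, had it at 4 months (3.86% in mi5 and 1.60% in WT). Of 15 upstream signalling and constitutive factors, which include Creb1, Srf and the Mef2 genes, 11 rose at P40 and 6 at 4 months and 0 fell, where 76.5% and 58.8% of all tested genes rose, and the medians of 0.51 and 0.66 lay under those of all tested genes. Rps6ka5, the kinase MSK1, which phosphorylates CREB, had the smallest p at both ages (3.15% in miR29 KO and 1.98% in WT; 3.32% in mi5 and 1.84% in WT). Srf itself, which binds CArG boxes, was near background at 0.457% in miR29 KO and 0.406% in WT, and 0.494% in mi5 and 0.343% in WT, and did not pass at either age. Of 8 dimer partners and corepressors 7 rose at P40 and 5 at 4 months and 0 fell, with medians of 0.61 and 0.95 beside the 0.65 and 0.83 of all tested genes. Rxra, with which Nr4a1 can pair, led at P40 (4.17% in miR29 KO and 2.75% in WT), and Batf, a partner of Jun proteins, led at 4 months (5.55% in mi5 and 2.50% in WT).

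Of 15 markers of cortical cell types 14 were tested and 12 rose at each age, where 76.5% and 58.8% of all tested genes rose, with medians of 0.71 and 0.90. The neuronal markers Rbfox3 and Gad1 were among those that rose at both ages. The 2 that passed at neither age were Snap25 and Slc17a7. At P40 Snap25 had 0.693% in miR29 KO and 0.605% in WT, and Slc17a7 0.692% and 0.665%. At 4 months Snap25 had 0.762% in mi5 and 0.649% in WT (log2 odds ratio 0.23). Slc17a7 had 1.12% in mi5 and 0.606% in WT there (log2 odds ratio 0.89, adjusted p = 0.0871). For both genes both mi5 libraries lay above both WT libraries. The part of the cell type markers in the values of the 10 genes was not tested.

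**Figure D4:**
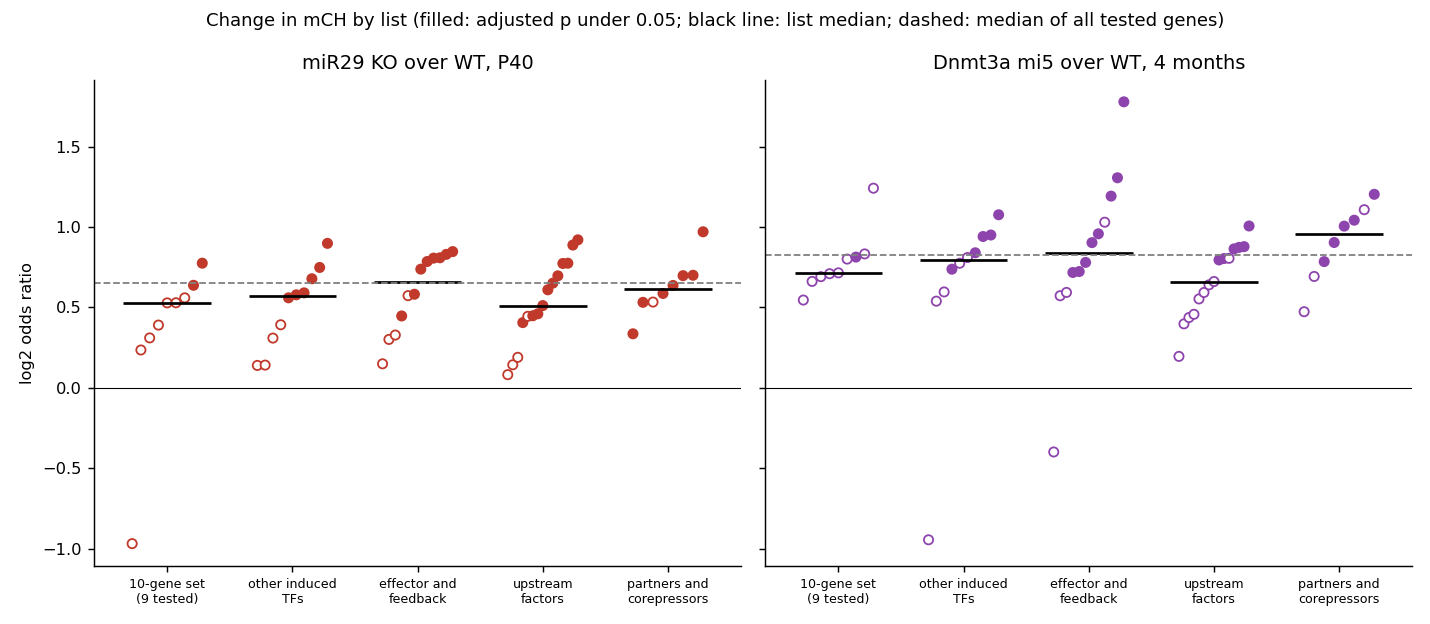
Log2 odds ratio (vertical axis) of every tested gene of each list (horizontal axis) for miR29 KO over WT at P40 (left) and Dnmt3a mi5 over WT at 4 months (right). Filled points passed the threshold, black lines are list medians and the dashed line the median of all tested genes; the 9 genes have medians of 0.53 and 0.72, beside 0.57 and 0.79 for the other induced transcription factor genes.

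Since most genes gained mCH in both mutants, the values were also fitted relative to the median gene of each library, a median shift of 0.65 at P40 and 0.83 at 4 months on the log2 scale. On that scale 0 of the 9 genes passed in either comparison, by the quasi-binomial model with an offset and by limma, where the offset model called 1% of all tested genes higher and 3.59% lower at P40, and 0.0353% lower at 4 months. Nr4a3 stood at 0.093 (adjusted p = 0.370) at P40 and -0.058 (adjusted p = 0.898) at 4 months, and Egr2 at -0.022 (adjusted p = 0.970) at P40. Npas4 was lowest at P40, at -1.66 (adjusted p = 0.122). The gains of Nr4a3 and Egr2 were thus close in size to that of the median gene.

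The genes whose centred log2 level over the 12 libraries was most like that of Nr4a3 and Nr4a1, the 2 genes with the most calls, were named as a description. For Nr4a3 they were Cmtm4 (Pearson r 0.94), L3mbtl3 (0.93) and Hpcal4 (0.93), and for Nr4a1 Cert1 (0.95), Ctnnb1 (0.94) and Fam20a (0.94). The 12 libraries share groups and depth, and these are the highest values among all tested genes.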

How the data were processed

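For each library the authors deposited a table of RefSeq transcripts, summing over each transcript the calls at non-CG cytosines. A deposited column gives the count of methylated calls, in whole numbers. The other column the authors deposited is an expected count, the number of all such calls. BSMAP and mm9 are the tool and genome named, without versions, per the submitters' processing notes. The expected counts were whole in 35.7% to 62.2% of rows and were rounded; the sources used here do not say how they arose. Per the labels' protocols, lambda DNA was spiked in to follow conversion; conversion rates were not used. Each table holds 36672 rows; 300 without a symbol in RefSeq (GRCm38.p6, used for names) and 1395 with repeated identifiers were left out. Each gene is represented by its best covered transcript row. Egr2 overlaps another annotated gene, which is not in the tables, and the other 9 genes overlap none.

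The level is methylated over total calls, in percent. For every gene the calls of all 12 libraries were fitted with group means in a quasi-binomial logistic model. Its dispersion was moderated by squeezeVar of limma 3.58.1, with trend and robust set, in R 4.3.3, and p-values were adjusted by Benjamini-Hochberg over 19826 genes with at least 500 calls in each library. The median overdispersion was 5.13, so intervals from counts alone understate the error. The model was run on simulated calls with a common overdispersion and few changed genes. These data differ in both respects, so that run does not establish the error rates here. Tables and figures were made in Python 3.11.15 with pandas 2.3.3, numpy 2.4.6, matplotlib 3.10.9 and scipy 1.17.1.

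Groups come from the labels. These name separate samples but no animals, so the p-values reflect how far the samples of a group vary, which may be technical. The genes, lists, tests and naming rule were chosen with earlier results of these data known. All 10 genes are given, and from each list the counts and the gene with the smallest p; Nr4a2, Srf, Snap25, Slc17a7, Rbfox3, Gad1, the genes that rose in the first list and those below the minimum were named after their values were seen. Alternatives covered the minimum of calls, scale, pseudocount, centring, background subtraction, moderation, replicate block, a term for Y-gene coverage, transcript choice and leaving out each library. The offset for each library's median was added after the data were seen.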

Additional observations from a re-analysis of the deposited data

Results flagged for a closer look

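In a group of 4 libraries, a value was picked out where its gap to the nearest other library divided by the group's range exceeded Dixon's 95% critical value for 4 values, which chance alone gives in about 1 in 20 groups. The rule was applied gene by gene, so a flag can arise by chance. It held for 2 values, both in P40 WT replicate 1. Npas4 stood at 1.82% there, against 0.402% to 0.608% in the other 3 WT libraries, a gap of 0.855 of the range. It rested on 78 methylated of 4281 calls, where the other 3 WT libraries had 13 to 26. The mean level of all tested genes was lower in that library than in the other 3. Arc stood at 0.693% there, against 1.30% to 1.41% in the other 3, a gap of 0.848 of the range. The same library was also the lowest of the 4 WT libraries for Fos, Fosb, Egr2, Egr3 and Nr4a3. Without it the log2 odds ratio of miR29 KO over WT was -0.20 for Npas4, 0.042 for Arc and 0.41 for Egr2, against -0.97, 0.24 and 0.64 with it. Why it stands apart was not tested.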

How the results depend on the processing

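Over the values of single genes under each alternative, 749 kept their direction and side of the threshold, 36 passed in addition, 6 lost the threshold and 56 changed sign, most of them under centring. Nr4a3 passed at both ages under each alternative but centring, with adjusted p from 4.8e-08 to 4.9e-04 at P40 and 3.9e-05 to 0.0451 at 4 months when a library was left out. Centring on each library's median left 0 genes past the threshold in either comparison with limma and 0 with the offset model. The sign then turned for 7 of the 9 genes at P40 and 8 of the 9 at 4 months. At P40, with limma and with the offset, the values were -0.015 and -0.022 for Egr2, -0.26 and -0.31 for Fos, -0.16 and -0.15 for Fosb, -0.34 and -0.37 for Egr1, -0.085 and -0.18 for Egr3, -0.43 and -0.46 for Arc, and -0.13 and -0.14 for Nr4a1. At 4 months they were -0.043 and -0.058 for Nr4a3, -0.39 and -0.33 for Fos, -0.097 and -0.037 for Egr1, -0.077 and -0.21 for Egr2, -0.15 and -0.16 for Egr3, -0.072 and -0.18 for Arc, -0.15 and -0.072 for Npas4, and -0.14 and -0.16 for Nr4a1. The difference between the mutants' effects turned positive for Fos (0.14 and 0.017), Egr2 (0.062 and 0.18), Nr4a1 (0.0033 and 0.019) and Nr4a3 (0.14 and 0.15), for Egr3 with limma (0.062), and for Nr4a3 with the transcript of fewest calls (0.025). Leaving out a library also turned a sign for Arc at P40 (-0.0028 to 0.38), Fos at 4 months (-0.038 to 0.92), Egr2 between WT ages (-0.18 to 0.66), and the difference for Fos (-0.53 to 0.43), Egr2 (-0.58 to 0.25), Egr3 (-0.49 to 0.18), Arc (-1.30 to 0.016) and Nr4a3 (-0.093 to 0.061). The turned values did not pass the threshold. At P40, against 2 genes, 4 passed with a minimum of 1000 calls, 4 with limma on percent, 4 with a term for low Y-gene coverage (Npas4 as lower), and 1 without trend or robust moderation, where Egr2 had an adjusted p of 0.0573. Nr4a1 passed at P40 with the minimum of 1000 calls, after subtraction of the 1st percentile, and with limma on percent, log2(percent + 0.1) and log2(percent + 0.5). Leaving out a library gave 1 to 5 genes at P40 and 1 to 2 at 4 months. At 4 months, against 1 gene, limma called 3 on log2(percent + 0.1), 5 on log2(percent + 0.5) and 6 on percent, and 3 passed after subtraction of the 1st percentile. The difference between mutants and the WT comparison across ages gave 0 genes under each alternative run. At the 10th percentile, 1 gene was near background for the P40 comparison and 0 for the 4-month comparison, against 3 and 2.

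Deviations of same-numbered libraries correlated at -0.01, -0.04, -0.05 and 0.11 at P40 and at -0.09 at 4 months, so the numbers were not shown to pair the samples. With the replicate number as a block 3 genes passed at P40 (Nr4a3, Egr2 and, as lower, Npas4 at -0.95) and 1 at 4 months; the block could not be fitted for the comparison across ages. Depth limits the genes with few calls most: Junb had a mean of 690 calls and a level at or near background, where neither mutant's shift was detectable. Intervals and limits of a count of 0 cover counting error only.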
